A study of Mus musculus with 6 samples.

Results

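The mRNAs of 7 regulators of mRNA decay were compared between mouse osteoblasts treated with vehicle and with corticosterone, the main glucocorticoid of mice. They were *Zfp36*, *Zfp36l1*, *Zfp36l2*, *Zc3h12a*, *Rc3h1*, *Rc3h2* and *Elavl1*, chosen by name from 24016 genes in the deposited table, and all 7 were present and tested. The cells were MC3T3-E1 subclone 4, a clonal preosteoblast line from mouse calvaria, labelled wild type. Both groups were first kept for 6 days in differentiation medium, which held 10 mM β-glycerophosphate and 50 μg/ml ascorbic acid, and both had 10 nM calcitriol in the medium during treatment. For 24 h, 3 cultures received vehicle and 3 received 100 nM corticosterone. The samples come from 1 line, so the spread between them is that between cultures of this line, which may be technical. The labels do not say that cultures with the same replicate number were handled together.

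The proteins encoded by these genes bind the 3′ untranslated region (3′ UTR) of short-lived mRNAs. The ZFP36 family (tristetraprolin, BRF1 and BRF2, encoded by *Zfp36*, *Zfp36l1* and *Zfp36l2*) binds AU-rich elements through CCCH zinc fingers and recruits the CCR4-NOT deadenylase, which shortens the poly(A) tail and starts decay. Regnase-1, encoded by *Zc3h12a*, is an endoribonuclease that cuts stem-loops in the 3′ UTRs of inflammatory mRNAs, and the Roquins, encoded by *Rc3h1* and *Rc3h2*, bind stem-loops and recruit deadenylases. HuR, encoded by *Elavl1*, binds AU-rich and U-rich elements and usually stabilises the mRNA. Transcription of *Zfp36* is known to be induced by glucocorticoids in several cell types, and MAPK-activated protein kinase 2 is known to inactivate tristetraprolin by phosphorylation, which the phosphatase DUSP1 counteracts by switching off p38.

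With corticosterone, 3 of the 7 genes were higher and 1 was lower. *Zfp36*, *Zfp36l2* and *Zc3h12a* rose by 24.6%, 38.9% and 30.5%, *Zfp36l1* fell by 25.6%, and *Rc3h1*, *Rc3h2* and *Elavl1* did not pass the test. The test was limma on the log2 of the normalized count plus 0.1, adjusted by Benjamini-Hochberg for all 24016 genes, and a gene is called here when its adjusted p was under 0.05. By this rule 8.49% of all genes were higher and 8.2% were lower. Among the 10558 genes with a mean normalized count of at least 100, a level that all 7 regulators reach, 17.1% were higher and 15.5% lower. None of the 7 passed the stricter threshold of the study, which also asks for an absolute log2 fold change over 1. In this limma fit 2.78% of all genes passed it. The study used DESeq2, which on the recovered read counts called 269 genes higher and 245 lower by it, the numbers in the paper. No change of the 7 regulators was over 1 in limma, edgeR or DESeq2, whatever its p. Their changes were moderate among called genes: 40.5% to 60.32% of all called genes had a smaller absolute change than the 4 called regulators. Of the genes with a mean of at least 100, called or not, 81.7% to 90.2% had a smaller change than these 4. A normalized count is a read count divided by 1 size factor per library. It compares 1 gene between libraries, and not different genes, since it is not corrected for length.

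All corticosterone libraries were shallower than the vehicle libraries. They held 16020401 to 18992332 reads on genes, against 19076586 to 25638645 with vehicle, and 3 reads, the floor used here, correspond to a normalized count of 2.32 to 3.84. The regulators had between 139 (*Zc3h12a*) and 11056 (*Zfp36l2*) reads per library, so none of them was near this floor. The treatment labels were checked on 5 known glucocorticoid targets, which were all higher. The paper names *Tsc22d3*, *Fkbp5*, *Per1* and *Sgk1* among them as upregulated in these data, so this check is not independent. *Tsc22d3* (GILZ) changed by 1.49 and *Fkbp5*, a co-chaperone of the receptor, by 2.46 on the log2 scale (adjusted p 9.5e-11 and 1.4e-13). All 10 osteoblast markers were measured, at summed normalized counts of 1183450 to 1405870 per library. Nearly all of this was *Col1a1*, *Col1a2* and *Spp1*, while *Bglap* had 48 to 311 reads. Of the 10 markers 8 were lower and 1 was higher with corticosterone, or 90% called. Of all genes 16.7% were called in either direction, and 32.6% of those with a mean of at least 100, which all 10 reach. The higher one was *Spp1* (log2 fold change 0.23, limma adjusted p = 6.1e-04), while *Runx2*, the transcription factor of the osteoblast lineage, fell by 1.16 on the log2 scale.

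Markers of other cell types were low or absent, with exceptions. The 4 measured T and B cell markers summed to 4.14 to 8.49 with vehicle and 3.21 to 8.96 with corticosterone, and *Cd3e* had at most 1 read. Of 9 macrophage and osteoclast markers, 5 were measured and summed to 2079 to 2243 with vehicle and 1642 to 1691 with corticosterone. Nearly all of this was *Ctsk* and *Lyz2*, which were both lower, while *Acp5* had at most 4 reads and *Csf1r* 12 to 38. The 2 measured adipocyte markers summed to 7.72 to 21.1 with vehicle and 108 to 133 with corticosterone, which was the rise of *Fabp4* (log2 fold change 3.14), while *Plin1* had at most 2 reads. The 3 endothelial markers summed to 22.8 to 47.8 and 39.8 to 53.7, and the 3 myocyte markers to 30.9 to 37.2 and 39.8 to 40.9. The 4 chondrocyte markers summed to 3543 to 3956 and 2987 to 3017. Among the latter, *Sox9* and *Col2a1* were lower and *Col10a1* was higher (log2 fold change 0.73, limma adjusted p = 0.0073). The part of these markers and of the osteoblast markers in the results below was not tested. In bulk RNA, fewer cells of a type and less RNA per cell cannot be told apart.

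The mRNAs of the ZFP36 family carry the kind of element that their own proteins bind. Sites are shown for this reason: the heptamer TATTTAT, searched on the transcribed strand of the longest annotated 3′ UTR and set in capitals, lies 3 times in each of the 3 family mRNAs. They are written 5′ to 3′ as DNA with 9 bases on each side, from the GENCODE transcripts *Zfp36-201*, *Zfp36l1-201* and *Zfp36l2-201* (GRCm38, all on the minus strand). In the second site of *Zfp36*, the third of *Zfp36l1* and the first of *Zfp36l2*, the heptamer is part of the nonamer TTATTTATT, the optimal binding motif of this family.
Zfp36, chr7:28376968-28376992: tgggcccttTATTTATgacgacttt
Zfp36, chr7:28376953-28376977: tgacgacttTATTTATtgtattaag
Zfp36, chr7:28376928-28376952: attttatagTATTTATatatattgg
Zfp36l1, chr12:80108424-80108448: atcaaaacgTATTTATtgccaaact
Zfp36l1, chr12:80108383-80108407: ttttgttcaTATTTATcgggatgac
Zfp36l1, chr12:80108169-80108193: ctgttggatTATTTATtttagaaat
Zfp36l2, chr17:84184916-84184940: tatttaactTATTTATtatcttgtg
Zfp36l2, chr17:84184868-84184892: tccatactgTATTTATcgagtatga
Zfp36l2, chr17:84184682-84184706: tgtatgtaaTATTTATttcattaat

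The first and second sites of *Zfp36* lie so close that their windows overlap. The 3′ UTR of *Zfp36* has 774 bases, that of *Zfp36l1* 1835 and that of *Zfp36l2* 1822, and 96.0% of the 11907 genes with an annotated 3′ UTR and a mean normalized count of at least 10 have fewer heptamers than these. *Elavl1* has 8 copies in 4218 bases, more than 99.9% of these genes. They lie close together (chr8:4285744-4285814 with flanks, minus strand), as 4 overlapping copies, 1 separate copy and 3 more overlapping copies, of which the first and last are shown for contrast with the single sites above. *Rc3h2* has 3 copies in 5331 bases and *Rc3h1* 2 in 7181 bases, and 1 of each is shown. *Zc3h12a* has none in 856 bases, though it holds 3 copies of the shorter ATTTA.
Elavl1, chr8:4285790-4285814: catgaaaatTATTTATttatttatt
Elavl1, chr8:4285744-4285768: ttatttattTATTTATtacttgtga
Rc3h1, chr1:160970045-160970069: tttactcatTATTTATtgagatgag
Rc3h2, chr2:37373289-37373313: aagacatttTATTTATtttactctg

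*Zfp36* encodes tristetraprolin, the founding member of the family (ENSMUSG00000044786, chromosome 7, 28376784 to 28380253 of GRCm38, minus strand). Its normalized counts were 294, 318 and 322 in the vehicle cultures and 393, 371 and 399 in the corticosterone cultures. Every corticosterone culture was above every vehicle culture. The mean rose from 311 ± 14.8 to 388 ± 14.7 (SD, n = 3 each), and the log2 fold change was 0.32 (SE 0.08, 95% interval 0.15 to 0.48, limma adjusted p = 0.0084). The call was lost without corticosterone replicate 3 and under upper-quartile scaling (adjusted p = 0.052 in both), with no variance trend (adjusted p = 0.075) and in DESeq2 with the replicate number as a block (adjusted p = 0.11). An antisense gene, *Gm44710*, overlaps 3.60% of its exon bases and had normalized counts of 18.8 ± 8.63 and 32.1 ± 1.04 (limma adjusted p = 0.12).

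*Zfp36l2* encodes BRF2 and was clearly higher with corticosterone (ENSMUSG00000045817, chromosome 17, 84183931 to 84187947, minus strand). Its normalized counts were 7757, 8533 and 7579 with vehicle and 10660.4, 11283 and 11187 with corticosterone. The groups were far apart relative to the spread within each. The mean rose from 7956 ± 507.5 to 11044 ± 335 (SD, n = 3 each), and the log2 fold change was 0.47 (SE 0.05, 95% interval 0.38 to 0.57, limma adjusted p = 1.2e-06). The call held without any 1 library. Its change was larger than that of the other 6 genes in this fit, but smaller than the fall of *Zfp36l1* under upper-quartile scaling (0.41 against -0.50), quantile normalization (0.37 against -0.44) and scaling to the same total (0.43 against -0.47).

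*Zfp36l1* encodes BRF1 and went the other way (ENSMUSG00000021127, chromosome 12, 80107754 to 80113013, minus strand). Its normalized counts were 1137, 1219 and 1114 with vehicle and 806, 899 and 876 with corticosterone. Every corticosterone culture was below every vehicle culture. The mean fell from 1157 ± 55.1 to 861 ± 48.4 (SD, n = 3 each), and the log2 fold change was -0.43 (SE 0.06, 95% interval -0.55 to -0.30, limma adjusted p = 6.3e-05), and the call held without any 1 library. A lincRNA on the opposite strand, *Gm26669*, overlaps 55.9% of its exon bases and spans its 3 heptamer sites, and the sources used here do not say whether strand was used in counting. *Gm26669* itself had only 4 to 13 reads per library, at normalized counts of 8.999 ± 4.41 and 9.31 ± 4.36 (limma adjusted p = 0.98).

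**Figure D1:**
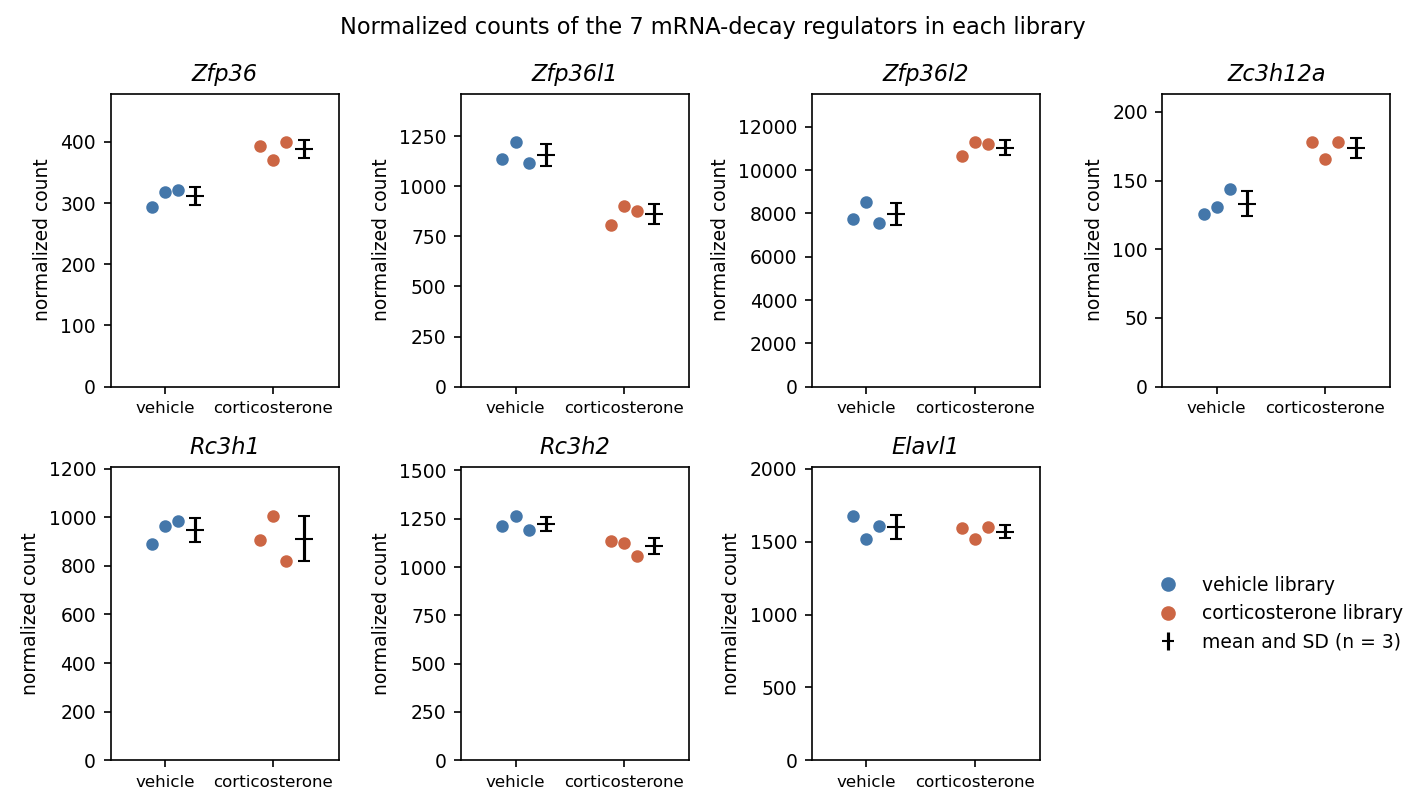
Normalized counts (reads divided by the library's size factor, linear axes from 0) of the 7 regulators in each of the 3 vehicle and 3 corticosterone libraries, with the mean and SD of each group beside the points. The groups are apart for *Zfp36*, *Zfp36l1*, *Zfp36l2*, *Zc3h12a* and, by less, *Rc3h2*, and overlap for *Rc3h1* and *Elavl1*.

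*Zc3h12a* encodes Regnase-1 (ENSMUSG00000042677, chromosome 4, 125118423 to 125127840, minus strand). Its normalized counts were 126, 130.4 and 144 with vehicle and 178, 166 and 178 with corticosterone. Again no corticosterone culture was as low as a vehicle culture. The mean rose from 133 ± 9.38 to 174 ± 6.99 (SD, n = 3 each), and the log2 fold change was 0.38 (SE 0.11, 95% interval 0.15 to 0.62, limma adjusted p = 0.026). This was the weakest of the 4 calls, on 139 to 169 reads per library. It was kept in 2 of 6 fits that left out 1 library, being lost without vehicle replicate 1 or 2 or corticosterone replicate 1 or 3 (adjusted p up to 0.093), and DESeq2 did not call it (adjusted p = 0.077).

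The Roquins differ from the genes above in that neither was called. *Rc3h1*, which encodes Roquin-1 (ENSMUSG00000040423, chromosome 1, 160906418 to 160974978, plus strand), had normalized counts of 890.3, 965 and 987 with vehicle and 908, 1006 and 821 with corticosterone. The groups overlapped, with the highest and the lowest value both in corticosterone cultures. The means were 947 ± 50.5 and 912 ± 92.5 (SD, n = 3 each), and the log2 difference was -0.06 (SE 0.07, 95% interval -0.21 to 0.09, limma adjusted p = 0.68).

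*Rc3h2*, which encodes Roquin-2 (ENSMUSG00000075376, chromosome 2, 37370069 to 37422903, minus strand), had normalized counts of 1211, 1265 and 1193 with vehicle and 1136, 1125 and 1059 with corticosterone. All 3 corticosterone values were below the vehicle values, by little. The means were 1223 ± 37.7 and 1107 ± 41.6 (SD, n = 3 each), and the log2 difference was -0.14 (SE 0.05, 95% interval -0.26 to -0.03). This missed the threshold in limma over all genes (adjusted p = 0.082) and passed it in limma over genes with a mean of at least 10 (adjusted p = 0.049) and when scaled to the same total (adjusted p = 0.024). edgeR called it with its filter on low counts (adjusted p = 0.046) and not without (adjusted p = 0.053).

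*Elavl1*, which encodes HuR (ENSMUSG00000040028, chromosome 8, 4285382 to 4325413, minus strand), had normalized counts of 1678, 1517 and 1612 with vehicle and 1593, 1518 and 1599 with corticosterone. The corticosterone values lay within the range of the vehicle values. The means were 1602 ± 80.6 and 1569.9 ± 45.5 (SD, n = 3 each), and the log2 difference was -0.03 (SE 0.05, 95% interval -0.14 to 0.08, limma adjusted p = 0.79). The interval corresponds to folds between 0.909 and 1.06.

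The groups did not overlap in 5 of the 7 genes, as in 29.6% of all genes. For each of these 5 genes the two-sided exact permutation test gave p = 0.1, the smallest that 3 against 3 allows, and it gave 0.7 for *Rc3h1* and 0.6 for *Elavl1*. The median log2 fold change of the 7 genes was -0.03, and that of all genes was -0.01.

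**Figure D2:**
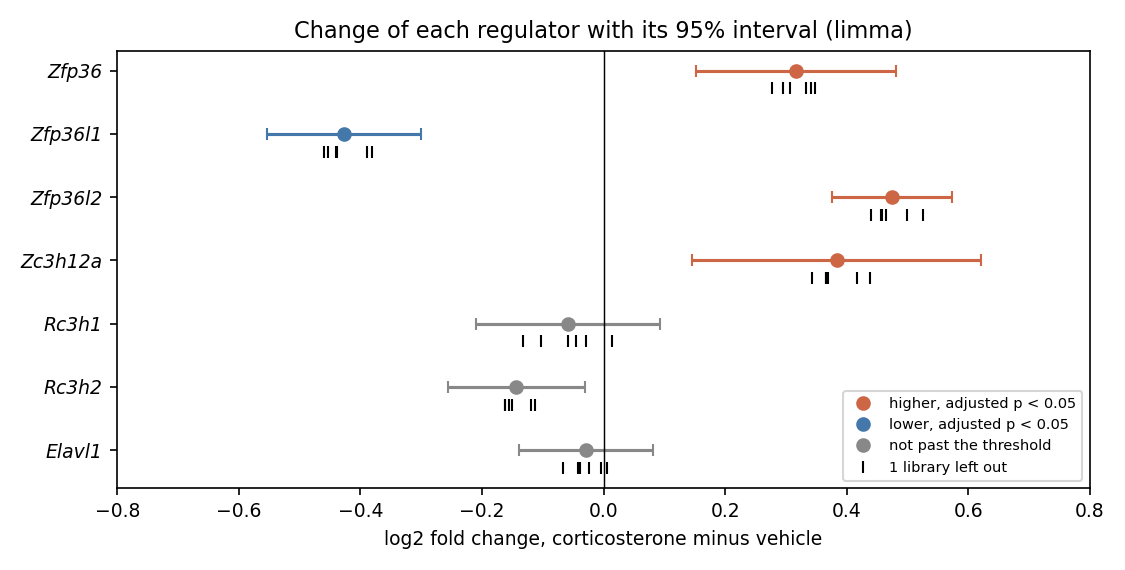
Log2 fold change of each regulator, corticosterone minus vehicle, with its 95% interval from limma (horizontal bars), coloured by whether the adjusted p was under 0.05. Ticks under each bar give the change in the 6 fits that each left out 1 library, which cross 0 for *Rc3h1* (-0.13 to 0.01) and *Elavl1* (-0.07 to 0.01) and stay on 1 side for the other 5 genes.

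Levels of different genes are comparable only per length, given here as reads per kilobase of merged exons, scaled like TPM to the same total (mean ± SD of 3 libraries). *Zfp36l2* was by far the most abundant of the 7 genes, at 308 ± 8.62 with vehicle and 413 ± 16.4 with corticosterone, and 98.6% of genes had a lower level with vehicle. *Zfp36l1* followed at 52.9 ± 1.73 and 38.0 ± 2.17, and then *Elavl1* at 21.2 ± 2.43 and 20.0 ± 1.14. *Zfp36* was at 12.3 ± 0.665 and 14.8 ± 0.986, *Rc3h1* at 11.5 ± 0.690 and 10.6 ± 0.761, *Rc3h2* at 8.52 ± 0.363 and 7.45 ± 0.175, and *Zc3h12a* at 6.34 ± 0.616 and 7.97 ± 0.537. Neighbours in the vehicle order were separate in all libraries except *Zfp36* and *Rc3h1*, whose levels overlapped, and with corticosterone the last 2 places were exchanged, with overlapping values. The lower part of this order depends on the length used. With the longest protein-coding transcript, which for *Rc3h2* has 8948 bases against 19624 of merged exons, *Rc3h2* with vehicle was at 14.2 ± 0.385, above *Zfp36* at 11.6 ± 0.527 and *Rc3h1* at 8.97 ± 0.470.

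The opposite changes of *Zfp36l1* and *Zfp36l2* altered the make-up of the family mRNA. Per length, *Zfp36l2* made up 82.5%, 82.9% and 82.2% of the 3 mRNAs in the vehicle cultures and 88.7%, 88.7% and 88.6% in the corticosterone cultures. *Zfp36l1* made up 14.3%, 14.0% and 14.3% with vehicle and 7.92%, 8.34% and 8.19% with corticosterone. The share of *Zfp36l1* was thus lower in every corticosterone culture, and that of *Zfp36l2* higher, by far more than their spread. *Zfp36*, although its own level rose, stayed a small part, at 3.14% to 3.55% with vehicle and 2.97% to 3.33% with corticosterone, and these ranges overlapped. The sum of the 3 levels was 373 ± 9.97 with vehicle and 466 ± 18.9 with corticosterone.

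**Figure D3:**
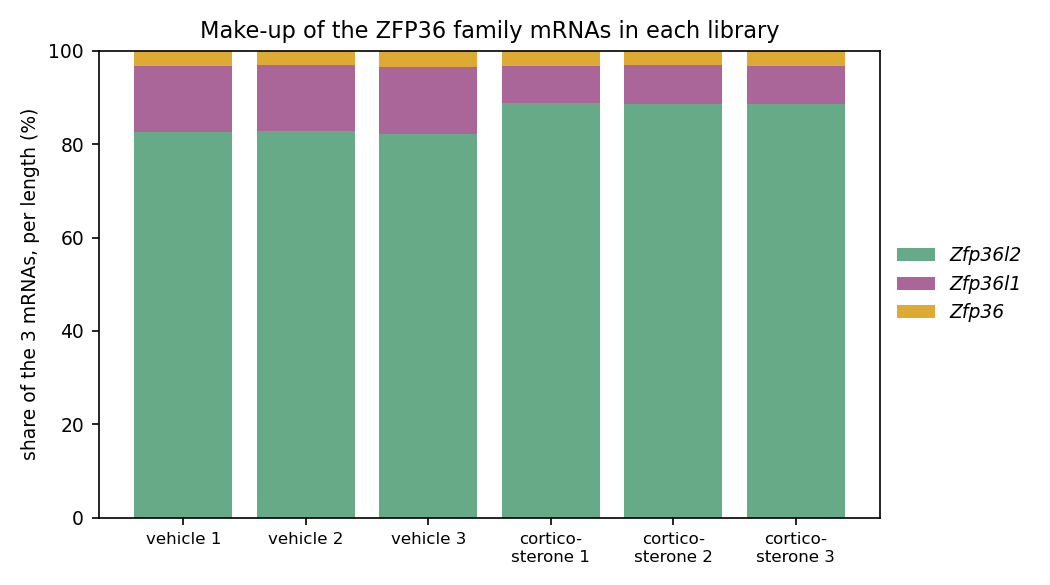
Share (%) of *Zfp36*, *Zfp36l1* and *Zfp36l2* in the summed per-length level of the 3 mRNAs, 1 stacked bar per library. The share of *Zfp36l1* is 14.0% to 14.3% in the 3 vehicle bars and 7.92% to 8.34% in the 3 corticosterone bars, where that of *Zfp36l2* is larger.

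Ratios within a library do not depend on its size factor, and they show the same shift. The ratio of *Zfp36l2* to *Zfp36l1*, per length, was 5.78, 5.93 and 5.76 with vehicle and 11.2, 10.6 and 10.8 with corticosterone, a difference of 0.90 on the log2 scale. The ratio of *Zfp36* to *Zfp36l1* was 0.223, 0.225 and 0.249 with vehicle and 0.420, 0.356 and 0.392 with corticosterone, a log2 difference of 0.74. Neither pair of groups overlapped.

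Set against *Elavl1*, whose protein usually opposes decay, the 4 called genes kept their direction. Since *Elavl1* itself differed by -0.03 on the log2 scale, ratios to it largely repeat the genes' own changes. The ratio to *Elavl1* differed by 0.35 for *Zfp36*, -0.40 for *Zfp36l1*, 0.50 for *Zfp36l2* and 0.41 for *Zc3h12a* on the log2 scale, with no overlap between groups. The ratios of *Rc3h1* and *Rc3h2* to *Elavl1*, of *Rc3h1* to *Rc3h2* and of *Zc3h12a* to *Zfp36* overlapped between groups. The last of these was 0.515 ± 0.0222 with vehicle and 0.5395 ± 0.00445 with corticosterone.

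Among 9 paralogs of the regulators, 6 were measured and 1 was called, or 16.7% of those measured. The share called was also 16.7% of all genes, and 32.6% of those with a mean of at least 100, which 4 of the 6 reach. *N4bp1*, whose protein has an RNase domain related to that of Regnase-1, had normalized counts of 2527, 2553 and 2608 with vehicle and 3971, 3897 and 4174 with corticosterone. All corticosterone values were well above the vehicle values, and the log2 fold change of 0.65 (SE 0.04, limma adjusted p = 1.3e-08) was larger than that of any of the 7 regulators. The Regnase relatives *Zc3h12b* (225 ± 17.5 and 189 ± 6.36, adjusted p = 0.11) and *Zc3h12c* (173 ± 38.3 and 219 ± 9.65, adjusted p = 0.084) were not called, nor was *Khnyn* (512 ± 43.2 and 521 ± 47.2, adjusted p = 0.91). *Zfp36l3* and *Zc3h12d* had 1 to 8 reads per library, and *Elavl2*, *Elavl3* and *Elavl4* were not analysed here.

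Genes of the decay machinery that these proteins recruit are read here beside the 16.7% of all genes called in either direction. Among genes with a mean of at least 100 this share was 32.6%. All measured deadenylase, BTG/TOB, decapping, exosome and SKI genes reach that level. Of 14 deadenylase genes of the CCR4-NOT and PAN complexes and *Parn*, 0 were called by limma and 0 by DESeq2, with log2 differences of -0.15 to 0.11 and a median of -0.08, and 4 had an unadjusted limma p under 0.05, all lower. edgeR called 1 lower, and upper-quartile scaling or scaling to the same total called 4 lower. The BTG/TOB proteins, which also bind CCR4-NOT, moved in both directions: of 5 genes, 2 were higher and 1 lower. *Btg2*, an antiproliferative early response gene, rose from 1310 ± 237 to 1806 ± 51.9 (log2 fold change 0.48, limma adjusted p = 8.5e-04) and *Tob2* changed by 0.19 (adjusted p = 0.019), while *Tob1* fell from 1472 ± 66.2 to 1241 ± 20.9 (-0.25, adjusted p = 0.0026). With no variance trend 0 of these 5 genes were called, and 3 had an unadjusted p under 0.05.

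Downstream of deadenylation, 2 of 16 decapping and 5′ decay genes were lower and 0 higher (0 at an unadjusted p under 0.05, and 0 by edgeR and DESeq2). *Dcp2*, the catalytic subunit of the decapping enzyme, fell from 1278 ± 46.2 to 1018 ± 49.5 (log2 fold change -0.33, limma adjusted p = 3.9e-04). *Ddx6*, a helicase of decapping complexes, differed by -0.13 (adjusted p = 0.035). With no variance trend 0 of the 16 were called, and 1 was lower at an unadjusted p under 0.05. Of 16 exosome and SKI complex genes 15 were measured and 3 were higher, with a median of 0.11: *Exosc1* (0.26, adjusted p = 0.010), *Exosc8* (0.19, adjusted p = 0.038) and *Skiv2l*, the SKI helicase (0.18, adjusted p = 0.0073). None of these 3 was called under upper-quartile scaling, where 1 of the 15 genes was higher at an unadjusted p under 0.05, or with no variance trend, where 4 were.

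Of 14 other stability factors, 1 was higher and 1 lower, or 14.3%. Of all genes 16.7% were called in either direction, and 32.6% of those with a mean of at least 100. *Arid5a*, whose protein is known to stabilise mRNAs such as that of *Il6* against Regnase-1, had normalized counts of 96.5, 105.7 and 94.1 with vehicle and 46.0, 54.1 and 37.1 with corticosterone. Its values were lower in all corticosterone cultures, and the log2 fold change was -1.12 (SE 0.18, limma adjusted p = 3.1e-04) on 29 to 137 reads. *Igf2bp2*, an RNA-binding protein that stabilises its targets, rose from 523 ± 55.4 to 717 ± 77.0 (log2 fold change 0.46, adjusted p = 0.0013).

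Among 16 genes of the signalling that controls these proteins, 37.5% were called in either direction. The share was 16.7% of all genes and 32.6% of those with a mean of at least 100, which all 16 reach. Of the 16 genes, 3 were higher and 3 lower. This balance depended on the setting: 1 was higher and 6 lower with quantile normalization, 1 and 5 with upper-quartile scaling, 1 and 4 when scaled to the same total, and 1 and 0 with no variance trend. *Dusp1*, the phosphatase of p38 and a known glucocorticoid target, had normalized counts of 401, 478.5 and 434 with vehicle and 1172, 1089 and 1112 with corticosterone. No other gene of this list reached an absolute log2 fold change over 1, and that of *Dusp1* was 1.36 (SE 0.07, limma adjusted p = 6.2e-10). The other calls were small: *Mapk14*, p38α, 0.16 (adjusted p = 0.023), *Irak1*, a kinase upstream of Regnase-1, 0.13 (adjusted p = 0.034), *Ywhaz*, whose product binds phosphorylated tristetraprolin, -0.21 (adjusted p = 0.0014), *Mapkapk3*, a relative of MAPK-activated protein kinase 2, -0.22 (adjusted p = 0.035), and *Btrc*, a ubiquitin ligase subunit for phosphorylated Regnase-1, -0.18 (adjusted p = 0.046). *Mapkapk2* itself was at 2723 ± 58.8 and 2649 ± 69.6 (adjusted p = 0.65). mRNA levels give no measure of the phosphorylation of these proteins.

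**Figure D4:**
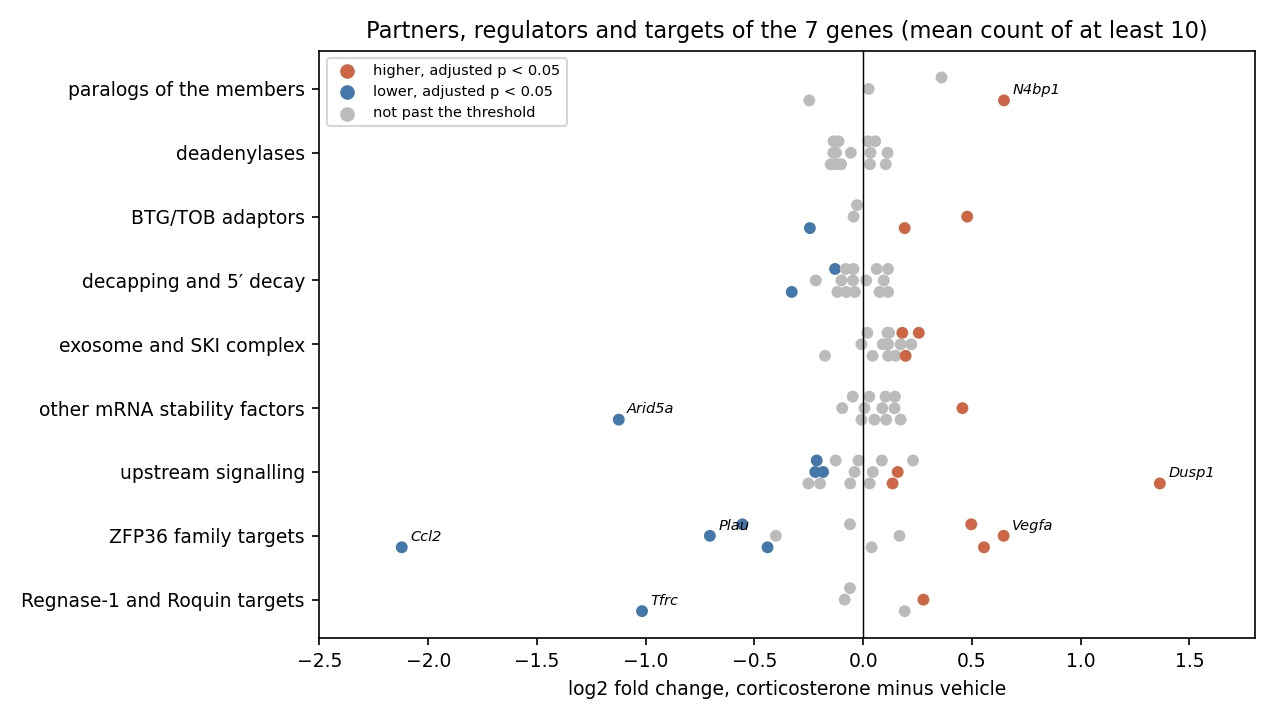
Log2 fold change, corticosterone minus vehicle, of the genes with a mean normalized count of at least 10 in each list of paralogs, decay machinery, signalling and targets, 1 point per gene, coloured by direction where the limma adjusted p was under 0.05 (vertical offsets only separate points). Most points of the decay machinery lie close to 0, while the known targets spread from -2.12 (*Ccl2*) to 0.65 (*Vegfa*).

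Known mRNA targets of the ZFP36 family moved in both directions. Of 23 listed targets 15 were measured, of which 3 were higher and 4 lower, or 46.7% of those measured. Of all genes 16.7% were called in either direction, and of those with a mean of at least 100 it was 32.6%. The list's median log2 fold change was 0.04 over all 15 and -0.06 over the 11 with a mean of at least 10. Some inflammatory targets were at or near the detection limit, with *Tnf*, *Il10* and *Ccl3* at 2 reads or fewer in every library. *Il6* had 1 to 16 reads, at 9.96 ± 6.28 with vehicle and 2.31 ± 1.14 with corticosterone (limma adjusted p = 0.11). Others were well measured and not called, and are named here after their values were seen. These were *Ptgs2* (169 to 410 reads, adjusted p = 0.85), *Lif* (159 to 252 reads, adjusted p = 0.34) and *Fos* (113 to 307 reads, adjusted p = 0.090).

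The targets that fell were a chemokine, a protease, an early response gene and a receptor. *Ccl2*, which attracts monocytes, had normalized counts of 35.7, 64.1 and 60.0 with vehicle and 14.99, 12.1 and 8.96 with corticosterone, a log2 fold change of -2.12 (SE 0.34, limma adjusted p = 2.1e-04). *Plau*, urokinase, fell from 210 ± 5.84 to 129 ± 18.2 (-0.71, adjusted p = 3.8e-04) and *Ier3* from 357 ± 11.7 to 244 ± 25.2 (-0.56, adjusted p = 2.7e-04). *Notch1*, named after its values were seen, fell from 1804 ± 163 to 1328 ± 75.4 (-0.44, adjusted p = 9.8e-05). No corticosterone culture reached a vehicle culture in any of these 4 genes.

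The targets that rose were a growth factor, a transcription factor and a kinase. *Vegfa*, the main angiogenic factor, had normalized counts of 5362, 5943 and 5237 with vehicle and 8770, 8678 and 8395 with corticosterone, a log2 fold change of 0.65 (SE 0.05, limma adjusted p = 3.8e-08). *Myc* rose from 1035 ± 43.8 to 1460 ± 12.0 (0.50, adjusted p = 2.5e-06) and the stress kinase gene *Plk3* from 139 ± 21.2 to 204 ± 19.7 (0.56, adjusted p = 0.0049). In their 3′ UTRs, *Vegfa* and *Plk3* have 3 heptamers each and *Myc* 0, and among the targets that fell *Ier3* and *Notch1* have 4 each, *Plau* 1 and *Ccl2* 0.

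Of 12 targets of Regnase-1 and the Roquins, 7 were measured, 1 was higher and 1 lower, or 28.6% of those measured. Of all genes 16.7% were called in either direction, and 32.6% of those with a mean of at least 100, which 4 of the 7 reach. *Tfrc*, the transferrin receptor, whose mRNA also answers to iron, had normalized counts of 718, 707 and 746 with vehicle and 375, 385.5 and 316 with corticosterone. All corticosterone values were far below the vehicle values, with a log2 fold change of -1.02 (SE 0.08, limma adjusted p = 7.7e-08). *Nfkbiz*, an IκB family member, rose from 467 ± 19.5 to 567 ± 47.7 (0.28, adjusted p = 0.015). Half-lives were not measured, so these are changes in level only.

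Across the transcriptome, the median change differed little with the number of heptamers. Among 11907 genes with a 3′ UTR and a mean normalized count of at least 10, the median log2 fold change was -0.0054 for the 8265 genes with no copy, -0.018 for 2363 genes with 1, -0.049 for 801 genes with 2 and -0.034 for 478 genes with at least 3. The share called lower was 14.3%, 16.1%, 20.6% and 19.9% in these classes, and the share called higher 16.04%, 14.9%, 12.9% and 14.2%. The classes also differ in 3′ UTR length, with medians of 884, 1875, 2552 and 3259.5 bases. Among UTRs of 1000 to 2000 bases the medians were -0.0099 with no copy (2082 genes) and -0.042 with at least 3 (81 genes), and among those of 2000 to 4000 bases -0.018 (1346 genes) and -0.034 (175 genes). Among UTRs of 500 to 1000 bases the order turned, with -0.010 (1912 genes) and 0.077 (27 genes). In UTRs of 500 to 1000 bases, 14.5% were called lower with no copy and 18.5% with at least 3 (higher, 15.5% and 33.3%). From 1000 to 2000 bases it was 14.7% and 23.5% lower (higher, 16.9% and 17.3%). From 2000 to 4000 bases it was 18.4% and 16% lower (higher, 15.8% and 11.4%). These are descriptions across genes, which are not independent replicates.

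**Figure D5:**
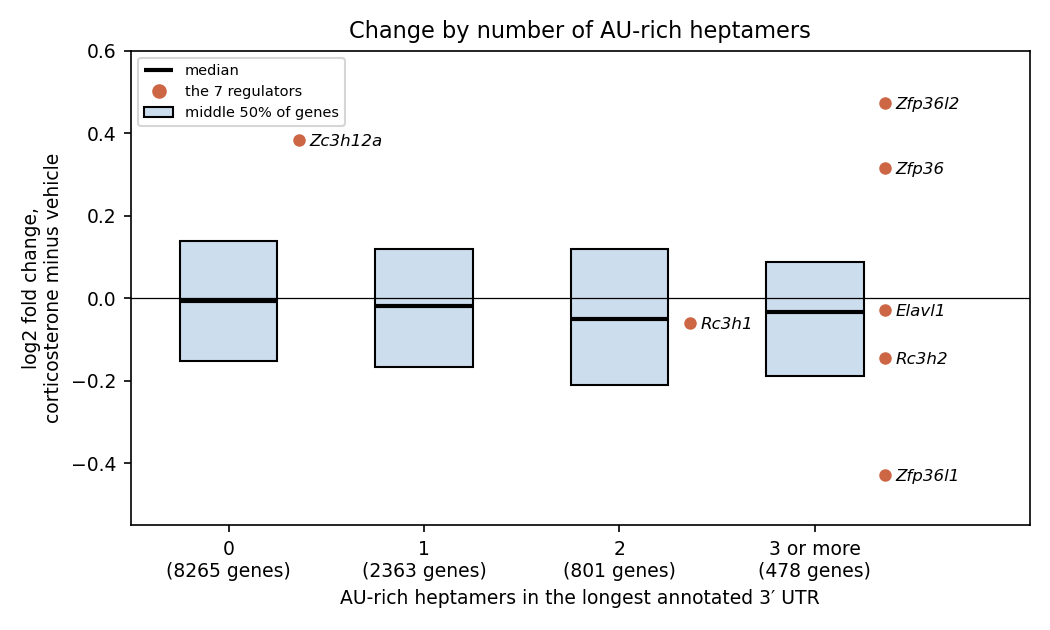
Log2 fold change, corticosterone minus vehicle, of genes grouped by the number of TATTTAT heptamers in the longest annotated 3′ UTR (boxes, middle 50% of genes; thick lines, medians), with the 7 regulators as points beside their class. The boxes nearly coincide (medians -0.0054 to -0.049), and the 3 ZFP36 family genes, all with 3 copies, lie outside their class's box on both sides.

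The 250 bases upstream of the RefSeq start sites of *Zfp36* and *Zfp36l1* are shown (GRCm38.p6, minus strand, 5′ to 3′), with exact motif matches in capitals. These genes moved in opposite directions, and any part of these sequences in that was not tested. The RefSeq start of *Zfp36* lies inside the longer GENCODE gene given above. In *Zfp36* the capitals mark GCGGGGGCG, the binding motif of EGR factors, and in *Zfp36l1* TATAAA, the core promoter element bound by the TATA-binding protein.
Zfp36, chr7:28379229-28379478: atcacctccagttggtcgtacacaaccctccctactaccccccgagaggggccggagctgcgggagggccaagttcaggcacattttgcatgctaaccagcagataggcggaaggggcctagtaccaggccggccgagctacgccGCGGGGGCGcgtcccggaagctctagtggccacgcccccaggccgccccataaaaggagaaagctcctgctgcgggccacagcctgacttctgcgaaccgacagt
Zfp36l1, chr12:80113014-80113263: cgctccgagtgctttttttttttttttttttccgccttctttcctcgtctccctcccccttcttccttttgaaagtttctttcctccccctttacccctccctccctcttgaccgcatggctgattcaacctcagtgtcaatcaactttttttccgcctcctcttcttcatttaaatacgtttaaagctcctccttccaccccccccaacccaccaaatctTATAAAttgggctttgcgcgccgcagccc

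A RefSeq promoter was matched for 6 of the 7 genes, all but *Zfp36l2*. Windows from 250 bases before to 50 bases after the start were searched on both strands. The glucocorticoid receptor core hexamer AGAACA was in 0 of the 6 windows and in 18.97% of 32851 mouse promoters of this length, and the full element (AGAACA, any 3 bases, TGTTCT) in 0 of 6 and 0.009132%. GCGGGGGCG was found in *Zfp36* only (2.907% of all promoters), TATAAA in *Zfp36l1* only (13.62%), and the AP-1 motif TGACTCA in *Rc3h1* only (5.202%). The cyclic AMP motif TGACGTCA was in none of the 6 and in 1.79% of all promoters. These matches are descriptions of letters in a short window. Only exact matches were counted, and near matches and more distant elements were not searched.

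For each regulator, the gene with the most similar profile over the 6 libraries was sought among 10547 genes with a mean of at least 100, by Pearson's r of the log2 values. The nearest were *Myo1e* for *Zfp36* (r = 0.997), *Stag1* for *Zfp36l1* (0.998), *St6galnac4* for *Zfp36l2* (0.999), *Elob* for *Zc3h12a* (0.997), *Fars2* for *Rc3h1* (0.989), *Tlr2* for *Rc3h2* (0.991) and *Mcm4* for *Elavl1* (0.992). With 6 points and 10547 candidates such values describe these libraries only. None of the 7 regulators was the nearest gene of another.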

How the data were processed

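RNA-seq libraries of 3 vehicle and 3 corticosterone cultures were analysed. The authors deposited 1 table of a signal for each gene in each library, named FPKM, and per the paper they tested differential expression with DESeq2. The submitters' processing notes name the mm10 build, while the aligner and counting program are not given in the sources used here. Within a library all values (100%, tolerance 0.001) are whole multiples of 1 number, for long and short genes alike. They are therefore read counts over a size factor set by the authors, and are called normalized counts here. The design was kept as written for a log-scale test.

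The 7 genes, the gene lists and the tests were chosen with earlier results of these data known, and lists are described by counts and medians with no test. The main test was limma 3.58.1 (R 4.3.3) with a variance trend on log2(value + 0.1). Its filter, a mean of at least 0.1, removed no gene, since the lowest mean was 0.257. For genes with few reads, fold changes on this scale depend on the added 0.1 and on zeros. They can be smaller or larger than the ratio of the means, or differ from it in sign. Groups are those of the labels. Calls rest on an adjusted p under 0.05, and the study's threshold, which adds an absolute log2 fold change over 1, is given beside them. Genes named were the 7 regulators, their paralogs, up to 6 called genes with the largest change in each list, genes at or near 0, *Tsc22d3*, *Fkbp5* and *Dusp1*, and the gene most alike to each regulator. A gene outside this rule is marked.

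Alternatives were pseudocounts of 1 and 0.01, no filter, means of at least 1 and 10, quantile normalization, upper-quartile scaling, the same total, a robust prior variance, no variance trend, the replicate number as a block, edgeR 4.0.16 and DESeq2 1.42.0 on the recovered reads, and leaving out each library. A per-length level from the longest coding transcript was added after seeing the data. On recovered reads edgeR called 4327 of 13871 genes and DESeq2 3634. The fits were tested on simulated data. Symbols (23983 of 24016 identifiers), coordinates and 3′ UTRs came from GENCODE on GRCm38, and promoters from RefSeq. Scripts used Python 3.11.15, pandas 2.3.3, scipy 1.17.1 and matplotlib 3.10.9. The 3-read floor covers counting error only. The limma intervals rest on the spread of a gene between cultures, moderated towards a variance trend fitted over all genes. The mouse and human experiments of the study were not analysed here.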

Additional observations from a re-analysis of the deposited data

How the results depend on the processing

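*Zfp36l1* and *Zfp36l2* kept their direction and stayed under an adjusted p of 0.05 in all 16 other settings (log2 fold changes of -0.50 to -0.43 and 0.37 to 0.48) and in all 6 fits that left out 1 library (-0.46 to -0.38 and 0.44 to 0.53). The other calls depended on settings, and the cause was not tested. *Zfp36* missed the threshold with no variance trend (0.32, adjusted p = 0.075), upper-quartile scaling (0.25, adjusted p = 0.052) and DESeq2 with the replicate block (0.32, adjusted p = 0.11), and leaving out 1 library gave 0.28 to 0.35. *Zc3h12a* missed it with no variance trend (0.38, adjusted p = 0.066), upper-quartile scaling (0.32, adjusted p = 0.081), DESeq2 (0.39, adjusted p = 0.077) and DESeq2 with the block (0.38, adjusted p = 0.23), and leaving out 1 library gave 0.34 to 0.44. *Rc3h2* passed it with a mean of at least 10 (-0.14, adjusted p = 0.049), upper-quartile scaling (-0.21, adjusted p = 0.037), the same total (-0.19, adjusted p = 0.024), edgeR (-0.14, adjusted p = 0.046) and edgeR with the replicate block (-0.14, adjusted p = 0.041), and leaving out 1 library gave -0.16 to -0.11. *Rc3h1* (-0.13 to 0.014) changed sign without corticosterone replicate 3 and *Elavl1* (-0.067 to 0.0053) without vehicle replicate 1, neither being called in any setting. None of the 7 reached an absolute log2 fold change over 1 in any setting.

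With no variance trend, upper-quartile scaling and DESeq2 with the block 1 regulator was called higher, and without 1 library 1 to 3 were. 2 were called lower with a mean of at least 10, upper-quartile scaling, the same total and edgeR with or without the block, and 1 without any 1 library. Over all genes, 2040 were higher and 1970 lower (50.9% higher). Upper-quartile scaling gave 1349 and 2595 (34.2% higher) and the same total 1703 and 2521 (40.3% higher), with median log2 fold changes of -0.08 and -0.05. With no variance trend 873 were higher and 760 lower, and DESeq2 with the block called 1254 lower, 198 of them by over 1. Without 1 library 1419 to 1873 were higher and 1148 to 1611 lower, and by over 1 it was 253 to 331 and 204 to 321.

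For the lists, leaving out 1 library gave medians and counts of called genes of -0.17 to 0.24 and 1 to 2 (paralogs), -0.094 to -0.021 and 0 to 2 (deadenylases), -0.052 to 0.027 and 1 to 3 (BTG/TOB), -0.060 to 0.0017 and 1 to 2 (decapping), 0.10 to 0.12 and 1 to 3 (exosome and SKI), -0.039 to -0.013 and 2 to 4 (signalling), -0.062 to 0.16 and 6 to 7 (ZFP36 targets), and -0.18 to 0.16 and 1 to 2 (Regnase-1 and Roquin targets). That of the glucocorticoid targets was 1.96 to 2.10. Per longest coding transcript, levels with vehicle were 235 for *Zfp36l2*, 40.3 for *Zfp36l1*, 29.1 for *Elavl1*, 14.2 for *Rc3h2*, 8.97 for *Rc3h1* and 5.05 for *Zc3h12a*.

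The values gave no sign that the replicate numbers pair the cultures. Same-numbered cultures deviated from their group means with correlations of -0.044, 0.0014 and 0.023 over 13880 genes. Differently numbered ones gave -0.064 to 0.066. With 3 libraries a group, this cannot show that cultures were not handled in pairs. With the number as a replicate block, limma called 2012 genes higher and 1893 lower and the same 4 regulators (*Zfp36* 0.32, adjusted p = 0.015, and *Zc3h12a* 0.38, adjusted p = 0.038). With 3 cultures a group and 139 to 169 reads, changes of *Zc3h12a* smaller than its interval are not resolved.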
